A study of Mus musculus with 23 samples.

Results

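The Cyp2c cytochrome P450 genes described here are 10 genes of 1 cluster on mouse chromosome 19, *Cyp2c29*, *Cyp2c37*, *Cyp2c38*, *Cyp2c39*, *Cyp2c40*, *Cyp2c50*, *Cyp2c54*, *Cyp2c55*, *Cyp2c69* and *Cyp2c70*. They were found by their gene symbols in the count table of the study, which holds 27179 genes, and each of the 10 symbols matched 1 gene. A further 6 symbols of the table begin with Cyp2c, of which 5 are genes described beside the members and 1 is the pseudogene *Cyp2c53-ps*. The study asked how loss of *Icmt*, the gene of isoprenylcysteine carboxyl methyltransferase, changes a liver cancer model driven by mutant BRAF, and sequenced mRNA of 15 female mice, from parts of the liver in which no tumor was seen. The 6 Ctrl mice were Alb-Cre/Trp53flx/flx/Icmtflx/+ with wild-type *Braf*, the 6 ABpI F/+ mice also carried BrafCA/+, an allele that makes BRAF V600E after Cre acts, and the 3 ABpI F/F mice carried BrafCA/+ with Icmtflx/flx. The ABpI F/+ mice are called Het and the ABpI F/F mice Hom from here on, after the sample labels. Cre was driven by the albumin promoter, hence in hepatocytes and in cells that arise from *Alb*-expressing precursors, and all 3 groups carried floxed *Trp53* on both alleles and at least 1 floxed *Icmt* allele. The sample labels write BRAF wt for Ctrl and BRAF +/+ for both mutant groups, where the design of the series gives BrafCA/+, and the design was followed here. The ages of single mice are not in the labels, so age was not compared and cannot be told apart from genotype. A strain label that names a further cross was given for 5 of the 6 Ctrl mice, so that BG3 was the 1 Ctrl mouse with the label of the mutant mice. Each mouse had 1 column of raw counts, with 24742910 to 32262649 counts per mouse. Levels are given as CPM, the counts of a gene for a library of common size, with libraries scaled by the TMM method, and log2 fold changes come from 1 edgeR quasi-likelihood fit over the 15 mice. A gene was called when its p, adjusted over all 27179 genes, was under 0.01 and its absolute log2 fold change was at least 1, a 2-fold change, and "rose" and "fell" are used for called genes alone.

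Enzymes of the Cyp2c family sit in the endoplasmic reticulum of hepatocytes, receive electrons from cytochrome P450 reductase, and oxidize drugs and other foreign compounds as well as arachidonic acid, linoleic acid, retinoic acid and bile acids. From arachidonic acid they make epoxyeicosatrienoic and hydroxyeicosatetraenoic acids, lipid mediators of which the epoxides are hydrolyzed by soluble epoxide hydrolase. Many of the genes are expressed most in the hepatocytes around the central vein, and several respond to the nuclear receptors CAR and PXR, to HNF4A and to growth hormone.

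*Icmt* was measured first, as the gene that separates the mutant groups. Its level was 27.8 to 34.7 CPM (median 30.7), with a mean of 30.8 ± 2.72 (SD, n = 6) in Ctrl mice and 27.8 to 37.4 CPM (median 32.6), with a mean of 32.7 ± 3.49 (SD, n = 6) in Het mice. In Hom mice it was 15.7 CPM in BG183, 16.6 in BG90 and 15.2 in BG38, with a mean of 15.8 ± 0.711 (SD, n = 3). All 3 Hom mice lay below all 12 others. The edgeR log2 fold change was 1.04 (standard error 0.13, adjusted p = 7.17e-06) in Het vs Hom and -0.96 (standard error 0.13, adjusted p = 8.51e-06) in Hom vs Ctrl, the second just short of the 2-fold threshold. Of 12 genes that define hepatocytes, led by *Alb*, each had counts in every mouse. Their summed level was 121674 to 163856 CPM in Ctrl, 217642 to 293677 CPM in Het and 177829 to 280539 CPM in Hom mice, higher in every mutant mouse than in every Ctrl mouse. A lower level of a gene of hepatocytes can come from fewer cells that express it or from less RNA per cell, and bulk RNA cannot tell these apart.

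The 10 members lay between chr19:39007019-40187333 on GRCm38, 5 on each strand, within 1.18 Mb. In the order of the chromosome they were *Cyp2c55*, *Cyp2c29*, *Cyp2c38*, *Cyp2c39*, *Cyp2c40*, *Cyp2c69*, *Cyp2c37*, *Cyp2c54*, *Cyp2c50* and *Cyp2c70*, with *Cyp2c65* and *Cyp2c66* after the first of these and *Cyp2c67* and *Cyp2c68* before *Cyp2c40*. Their coding sequences formed sets of near copies. *Cyp2c40* was identical to *Cyp2c68* at 98.1%, to *Cyp2c69* at 97.9% and to *Cyp2c67* at 97.7% of aligned coding bases. *Cyp2c37* and *Cyp2c50* were identical at 96.1%, *Cyp2c50* and *Cyp2c54* at 95.2%, and *Cyp2c38* and *Cyp2c39* at 94.2%. *Cyp2c29* was identical to *Cyp2c39* at 89.5% of coding bases, and *Cyp2c70* was the most distant, at 65.6% to 69.9% with the other 9 members. Reads were sequenced as pairs of 150 bases, and the paper states that they were trimmed. The share of 150-base windows of each transcript that also occurs in another Cyp2c transcript shows where an untrimmed single read has more than 1 origin. That share was 29.1% for *Cyp2c40*, 22.5% for *Cyp2c69*, 3.25% for *Cyp2c50*, 2.99% for *Cyp2c54* and 0.299% for *Cyp2c37*, and 0% for *Cyp2c29*, *Cyp2c38*, *Cyp2c39*, *Cyp2c55* and *Cyp2c70*. Shorter windows were shared more. At 50 bases the share was 72.1% for *Cyp2c40*, 54.8% for *Cyp2c69*, 30.7% for *Cyp2c50*, 30.1% for *Cyp2c37* and 25.7% for *Cyp2c54*. It was 11.4% for *Cyp2c39*, 7.45% for *Cyp2c38* and 0.519% for *Cyp2c29*, and still 0% for *Cyp2c55* and *Cyp2c70*. How the counting treated reads with several origins is not stated, so the values of *Cyp2c40* and *Cyp2c69* are given beside the sum of their set.

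*Cyp2c29* (gene ID 13095, chr19:39269405-39330713, plus strand) encodes an arachidonic acid epoxygenase that CAR can induce. It measured 769 to 1068 CPM (median 994), with a mean of 957 ± 108 (SD, n = 6) in Ctrl and 521 to 1009 CPM (median 877), with a mean of 820.3 ± 192 (SD, n = 6) in Het livers. The Hom mice had 633 CPM in BG183, 571 in BG90 and 351 in BG38, with a mean of 518 ± 149 (SD, n = 3). The ranges of Ctrl and Het overlapped, whereas each Hom mouse was below each Ctrl mouse and within or below the range of the Het mice. *Cyp2c29* did not pass the thresholds in edgeR in either mutant group, with -0.22 (standard error 0.17, adjusted p = 0.442) in Het vs Ctrl and -0.88 (standard error 0.22, adjusted p = 0.00559) in Hom vs Ctrl. In the second comparison the p passed and the size did not, and without BG183 the gene was called, at -1.05 (adjusted p = 0.00404).

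*Cyp2c38* (gene ID 13097, chr19:39389556-39463075, minus strand) encodes another epoxygenase and was less abundant. Ctrl mice had 77.0 to 158 CPM (median 90.4), with a mean of 108 ± 38.6 (SD, n = 6), and Het mice had 15.3 to 46.5 CPM (median 28.1), with a mean of 31.3 ± 12.3 (SD, n = 6). The Hom values were 32.1 CPM in BG183, 31.0 in BG90 and 18.2 in BG38, with a mean of 27.1 ± 7.75 (SD, n = 3). A pair of Ctrl mice, malpa387 and BG3, stood well above the other 4, and every mutant mouse of either group was below every Ctrl mouse. *Cyp2c38* fell in both comparisons with Ctrl in edgeR, with a log2 fold change of -1.79 (standard error 0.29, adjusted p = 0.000284) in Het mice and -1.999 (standard error 0.39, adjusted p = 0.00187) in Hom mice. The call in Hom mice rested on BG38, without which the value was -1.78 (adjusted p = 0.0192). Between the mutant groups the log2 fold change, Het over Hom, was 0.21 (standard error 0.35, adjusted p = 0.948) in edgeR, and the ranges overlapped.

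*Cyp2c39* (gene ID 13098, chr19:39510862-39568529, plus strand), whose enzyme also hydroxylates retinoic acid, was low in all livers. Its level was 9.08 to 13.1 CPM (median 11.3), with a mean of 11.1 ± 1.58 (SD, n = 6) in Ctrl and 5.28 to 13.4 CPM (median 5.96), with a mean of 7.34 ± 3.14 (SD, n = 6) in Het mice. In Hom mice it was 2.55 CPM in BG183, 3.00 in BG90 and 2.49 in BG38, with a mean of 2.68 ± 0.279 (SD, n = 3). Of the Het mice BG55, at 13.4 CPM, lay above all Ctrl mice, and the others, at 5.28 to 7.93 CPM, lay below all Ctrl mice. The 3 Hom mice lay close together and below all other mice. In edgeR the log2 fold change was -0.60 (standard error 0.20, adjusted p = 0.0266) in Het vs Ctrl, not called, and -2.05 (standard error 0.27, adjusted p = 8.98e-06) in Hom vs Ctrl, called. The difference between the mutant groups was itself called, at 1.45 (standard error 0.26, adjusted p = 0.000435) for Het over Hom.

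*Cyp2c37* (gene ID 13096, chr19:39992424-40012243, plus strand) encodes an enzyme that makes hydroxyeicosatetraenoic acid. It had 733 to 886 CPM (median 790.2), with a mean of 801 ± 69.1 (SD, n = 6) in Ctrl mice and 182 to 576 CPM (median 298), with a mean of 332 ± 133 (SD, n = 6) in Het mice. The Hom mice had 197 CPM in BG183, 164 in BG90 and 110.1 in BG38, with a mean of 157 ± 43.7 (SD, n = 3). Every mutant mouse was below every Ctrl mouse, and the mutant groups overlapped through BG31, the lowest Het mouse, and BG183, the highest Hom mouse. The edgeR log2 fold change was -1.27 (standard error 0.20, adjusted p = 5.67e-05) in Het vs Ctrl and -2.35 (standard error 0.28, adjusted p = 3.16e-06) in Hom vs Ctrl, both called. Het exceeded Hom by 1.08 (standard error 0.26, adjusted p = 0.00512) on the log2 scale in edgeR, a call that was lost without BG55, at 0.85 (adjusted p = 0.00758), without BG90, at 1.11 (adjusted p = 0.0217), and without BG38, at 0.88 (adjusted p = 0.0514). It was also lost in a fit on the mutant mice alone, at 1.06 (adjusted p = 0.0434) in edgeR.

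*Cyp2c50* (gene ID 107141, chr19:40089688-40113950, plus strand) and *Cyp2c54* (gene ID 404195, chr19:40037940-40073827, minus strand) encode enzymes that act on arachidonic and linoleic acid. *Cyp2c50* had 603 to 853 CPM (median 699), with a mean of 707 ± 92.5 (SD, n = 6) in Ctrl and 194 to 356 CPM (median 222), with a mean of 256 ± 74.1 (SD, n = 6) in Het mice, and 232 CPM in BG183, 191 in BG90 and 112 in BG38, with a mean of 178 ± 61.1 (SD, n = 3), in Hom mice. *Cyp2c54* had 279 to 441 CPM (median 299), with a mean of 326 ± 63.5 (SD, n = 6) in Ctrl and 54.9 to 136 CPM (median 80.7), with a mean of 84.4 ± 29.9 (SD, n = 6) in Het mice, and 85.3 CPM in BG183, 55.0 in BG90 and 22.5 in BG38, with a mean of 54.2 ± 31.4 (SD, n = 3), in Hom mice. For both genes all 9 mutant mice lay below all 6 Ctrl mice, the mutant groups overlapped, and BG38 was the lowest mouse of all. *Cyp2c50* changed in edgeR by a log2 fold change of -1.47 (standard error 0.19, adjusted p = 2.51e-06) in Het vs Ctrl and -1.99 (standard error 0.25, adjusted p = 4.81e-06) in Hom vs Ctrl. *Cyp2c54* changed by -1.95 (standard error 0.29, adjusted p = 7.25e-05) and -2.59 (standard error 0.39, adjusted p = 0.00017) in the same comparisons in edgeR. Neither gene was called between the mutant groups, where edgeR gave 0.52 (standard error 0.23, adjusted p = 0.134) for *Cyp2c50* and 0.64 (standard error 0.35, adjusted p = 0.262) for *Cyp2c54*. Leaving out each mouse gave 0.27 to 0.76 for *Cyp2c50* and 0.27 to 1.13 for *Cyp2c54* in this comparison.

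*Cyp2c40* (gene ID 13099, chr19:39767071-39812814, minus strand) encodes an enzyme that forms hydroxyeicosatetraenoic acid, and *Cyp2c69* (gene ID 100043108, chr19:39842814-39886799, minus strand) is its near copy. *Cyp2c40* had 381 to 629 CPM (median 529), with a mean of 525 ± 82.4 (SD, n = 6) in Ctrl and 46.0 to 121 CPM (median 76.0), with a mean of 81.8 ± 29.0 (SD, n = 6) in Het mice. Its Hom values were 70.5 CPM in BG183, 53.4 in BG90 and 94.7 in BG38, with a mean of 72.9 ± 20.8 (SD, n = 3). The lowest Ctrl mouse, malpa387, was still more than 3 times the highest mutant mouse, and the 2 mutant groups overlapped. *Cyp2c40* fell in edgeR, at -2.68 (standard error 0.22, adjusted p = 9.81e-09) in Het vs Ctrl and -2.85 (standard error 0.29, adjusted p = 6.16e-07) in Hom vs Ctrl. Het vs Hom gave 0.17 (standard error 0.25, adjusted p = 0.886) in edgeR, not called.

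*Cyp2c69* had 734 to 1715 CPM (median 1421), with a mean of 1348 ± 363 (SD, n = 6) in Ctrl and 116 to 282 CPM (median 166), with a mean of 177 ± 65.6 (SD, n = 6) in Het mice. Its Hom values were 12.7 CPM in BG183, 50.3 in BG90 and 54.1 in BG38, with a mean of 39.0 ± 22.9 (SD, n = 3). The 3 groups did not overlap, with Ctrl highest, Hom lowest and malpa387 again the lowest Ctrl mouse. *Cyp2c69* fell in both comparisons with Ctrl in edgeR, at a log2 fold change of -2.93 (standard error 0.35, adjusted p = 1.08e-05) in Het and -5.11 (standard error 0.53, adjusted p = 5.97e-06) in Hom mice. The difference between the mutant groups was called, at 2.18 (standard error 0.45, adjusted p = 0.00277) for Het over Hom. It was lost in a fit on the mutant mice alone, at 2.16 (adjusted p = 0.0298), which estimates the spread from 9 mice.

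The other near copies moved differently from *Cyp2c69*. *Cyp2c67* had 183 ± 22.0 CPM (SD, n = 6) in Ctrl, 30.7 ± 5.77 CPM (SD, n = 6) in Het and 47.3 ± 13.3 CPM (SD, n = 3) in Hom mice. It fell in both mutant groups in edgeR, with -2.58 (standard error 0.15, adjusted p = 2.45e-11) in Het and -1.95 (standard error 0.19, adjusted p = 1.47e-07) in Hom vs Ctrl, and was lower in Het than in Hom in every mouse, where edgeR gave -0.62 (standard error 0.17, adjusted p = 0.0115), not called. *Cyp2c68* had 549 ± 66.2 CPM (SD, n = 6) in Ctrl, 416 ± 72.4 CPM (SD, n = 6) in Het and 274 ± 53.1 CPM (SD, n = 3) in Hom mice. It was called in Hom vs Ctrl, at -1.01 (standard error 0.18, adjusted p = 0.000315), and not in Het vs Ctrl, at -0.40 (standard error 0.14, adjusted p = 0.0392) in edgeR. *Cyp2c23*, which lies 5 Mb from the start of the cluster and encodes an epoxygenase, fell in Het vs Ctrl at -2.77 (standard error 0.15, adjusted p = 1.18e-11) and less in Hom vs Ctrl at -1.52 (standard error 0.19, adjusted p = 4.03e-06) in edgeR. Its difference between the mutant groups was called, at -1.25 (standard error 0.17, adjusted p = 2.6e-05) in edgeR. *Cyp2c65* had at most 2 counts in a mouse, *Cyp2c66* had 0 in all 15, and *Cyp2c44*, an older symbol of *Cyp2c23*, was not in the table.

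*Cyp2c55* (gene ID 72082, chr19:39007019-39042693, plus strand) encodes a P450 known mostly from tissues outside the liver, the intestine among them, that ligands of CAR and PXR induce in liver. Ctrl mice had 2.36 to 9.72 CPM (median 4.01), with a mean of 5.24 ± 2.84 (SD, n = 6), and Het mice had 0.302 to 1.39 CPM (median 0.446), with a mean of 0.714 ± 0.524 (SD, n = 6), which stood for 8 to 43 counts. The Hom mice had 6.75 CPM in BG183, 4.32 in BG90 and 1.496 in BG38, with a mean of 4.19 ± 2.63 (SD, n = 3). Here the Het mice were lowest, below all Ctrl and all Hom mice, and of the Hom mice BG183 and BG90 lay within the Ctrl range while BG38 lay between the Ctrl and Het ranges. *Cyp2c55* fell in Het vs Ctrl in edgeR, at -2.86 (standard error 0.50, adjusted p = 0.000417), and was not called in Hom vs Ctrl, at -0.32 (standard error 0.55, adjusted p = 0.96). The difference between the mutant groups was called, at -2.53 (standard error 0.56, adjusted p = 0.00466) for Het over Hom. That call did not hold without BG55 (-2.38, adjusted p = 0.011), BG31 (-2.39, adjusted p = 0.0115), BG88 (-2.45, adjusted p = 0.0138) or BG30 (-2.40, adjusted p = 0.0113). It was also lost without BG183 (-2.0001, adjusted p = 0.0348) or BG90 (-2.51, adjusted p = 0.0156), while the direction stayed the same in all 15 fits that left out a mouse. In Hom vs Ctrl the sign changed without BG38, to 0.0847 (adjusted p = 1). Among 10 markers of intestinal epithelium the defining genes *Cdx1*, *Sis* and *Alpi* had 0 counts in all mice and *Cdx2* had at most 3. The summed level of that list, led by *Fabp2* in Ctrl and Hom mice and by *Lgals4* in Het mice, was 56.9 to 77.3 CPM in Ctrl, 24.4 to 59.2 CPM in Het and 14.6 to 28.6 CPM in Hom mice. Of the 10 markers 1, *Fabp2*, fell in each comparison with Ctrl in edgeR, at -1.76 and -1.88, where *Lgals4* was at 0.39 and -0.99, not called.

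*Cyp2c70* (gene ID 226105, chr19:40153353-40187333, minus strand) encodes the enzyme that turns chenodeoxycholic acid into muricholic acids, bile acids typical of mice and rats that humans lack. It had 480.3 to 707 CPM (median 639), with a mean of 603 ± 94.3 (SD, n = 6) in Ctrl and 464 to 889 CPM (median 553), with a mean of 638 ± 174 (SD, n = 6) in Het mice. The Hom mice had 576 CPM in BG183, 621 in BG90 and 504 in BG38, with a mean of 567 ± 58.9 (SD, n = 3). The 3 groups overlapped, and the highest values came from BG88 and BG175. In edgeR the log2 fold change was 0.0802 (standard error 0.16, adjusted p = 0.99) in Het vs Ctrl, -0.0888 (standard error 0.20, adjusted p = 1) in Hom vs Ctrl and 0.17 (standard error 0.20, adjusted p = 0.755) in Het vs Hom. The sign in Het vs Ctrl was opposite without BG88, at -0.0355 (adjusted p = 1), and without BG175, at -0.0311 (adjusted p = 1).

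**Figure D1:**
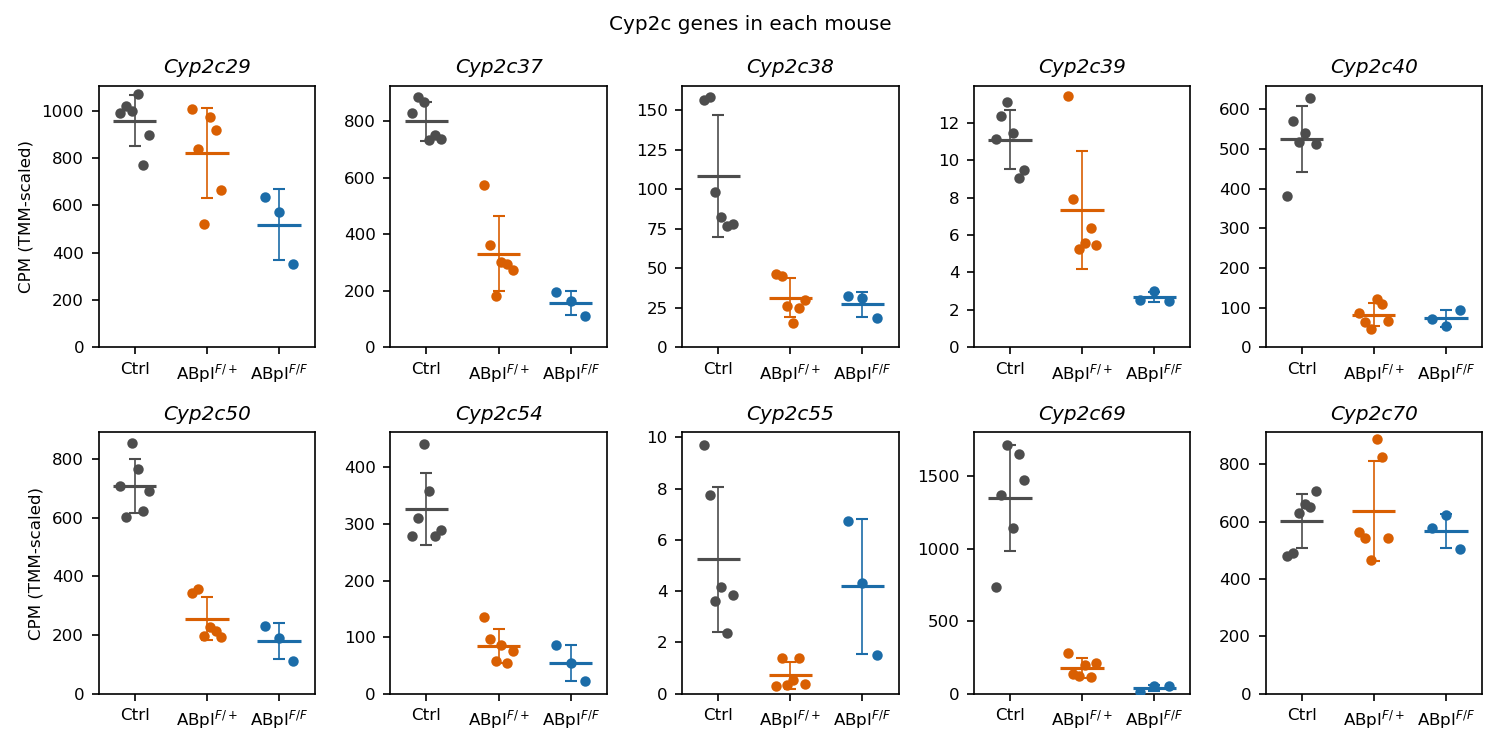
Level of each of the 10 Cyp2c genes in every mouse, in CPM after TMM scaling, with 1 panel per gene and its own axis from 0. Points are mice, and the horizontal lines and bars are the mean ± SD of 6 Ctrl, 6 Het (ABpI F/+) and 3 Hom (ABpI F/F) mice. *Cyp2c37*, *Cyp2c38*, *Cyp2c40*, *Cyp2c50*, *Cyp2c54* and *Cyp2c69* separate Ctrl from both mutant groups, *Cyp2c55* is lowest in Het, and the groups of *Cyp2c70* overlap.

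The comparison of Het with Ctrl asks what BRAF V600E changes while 1 *Icmt* allele remains. In it 7 of the 10 members were called lower, where edgeR called 5.35% of all genes lower, and 0 were called higher, where it called 4.69% of all genes higher. In either direction it called 10.0% of all genes. Shares of all genes, here and below, are taken over 27179 genes, of which 20380 had any read. A gene without reads cannot be called or separate the groups, so these shares are lower than among genes with reads. Of the 12316 genes averaging 1 CPM or more, edgeR called 1156 lower and 1011 higher in Het vs Ctrl. At an unadjusted p under 0.05 edgeR had 8 members lower and 0 higher, where 4573 of all 27179 genes were lower and 4520 higher. DESeq2 called 7 members lower and 0 higher, and 1671 and 1383 of all genes. For 7 members every Het mouse was below every Ctrl mouse, which held for 8.13% of all genes, and for 0 members every mouse was above, which held for 7.78%. The median log2 fold change of the members was -1.63, against 0.00 over all genes.

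The comparison of Hom with Ctrl asks what the same oncogene changes when both *Icmt* alleles are floxed, and it shares the Ctrl mice with the one before. Again 7 of the 10 members were called lower by edgeR, where 2.38% of all genes were, and 0 higher, where 4.55% of all genes were, out of 6.93% called in either direction. At an unadjusted p under 0.05 edgeR had 8 lower and 0 higher, against 3018 and 4161 of all genes, and DESeq2 called 7 and 0, against 766 and 1419. For 8 members all Hom mice were below all Ctrl mice, which held for 7.85% of all genes, and for 0 they were above, against 9.27%. Of the 12316 genes averaging 1 CPM or more, edgeR called 621 lower and 928 higher in Hom vs Ctrl. The median of the members was -2.03, against 0.00 over all genes. The 7 differed from those in Het mice by *Cyp2c39*, which was called in Hom mice alone, and *Cyp2c55*, which was called in Het mice alone.

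The comparison of Het with Hom asks what the remaining *Icmt* allele changes in mice with the oncogene. There 3 members were called higher in Het, *Cyp2c37*, *Cyp2c39* and *Cyp2c69*, where 1.76% of all genes were called higher. The 1 member called lower was *Cyp2c55*, where 5.49% of all genes were called lower, and 7.24% were called in either direction. These shares depended on BG38, without which 788 in place of 1491 genes were called lower and 1155 in place of 1969 in either direction. All Het mice lay above all Hom mice for 2 members, against 9.15% of all genes, and below them for 1, against 9.54%. The median of the members was 0.58, against 0.00 over all genes.

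**Figure D2:**
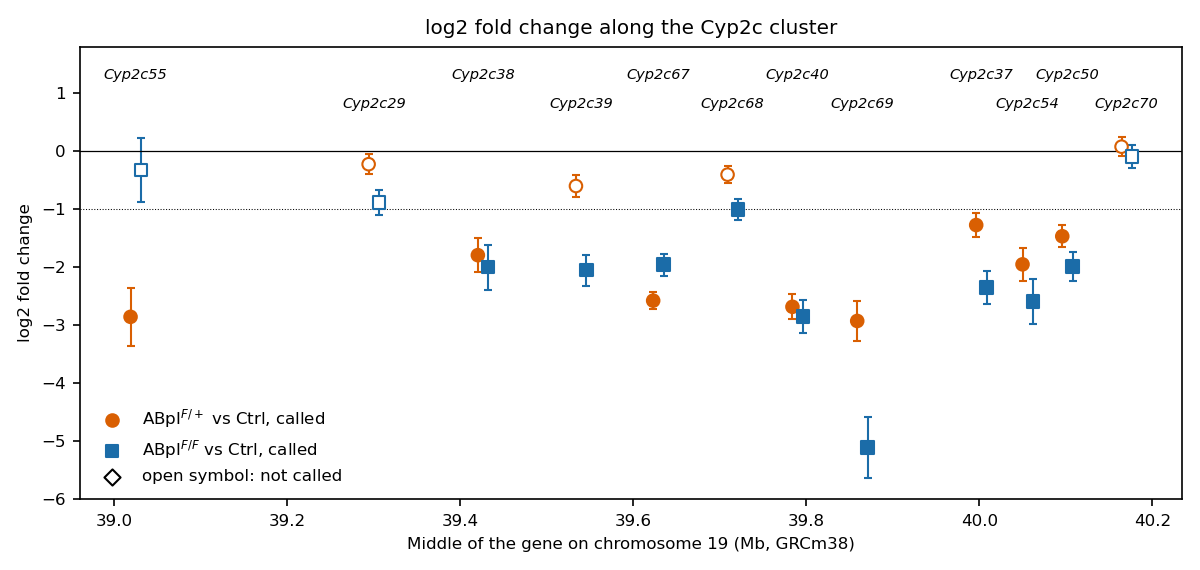
log2 fold change with its standard error from the edgeR fit for the Cyp2c genes along chromosome 19 (GRCm38), in Het (ABpI F/+) vs Ctrl (circles) and Hom (ABpI F/F) vs Ctrl (squares), including the near copies *Cyp2c67* and *Cyp2c68*. Filled symbols were called and open symbols were not, and the dotted line marks a log2 fold change of -1. Called and uncalled genes are interspersed along the cluster, with *Cyp2c69* in Hom mice at -5.11 and *Cyp2c70* near 0 in both groups.

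The strain label and the clock were measured against these results. With BG3 as the only Ctrl mouse, assumed to vary like the mice of the other groups, 1 of the 7 members stayed called in Het vs Ctrl, *Cyp2c40*, at -2.80 (adjusted p = 0.000801) in edgeR. The log2 fold changes of the other 6 were -1.42 for *Cyp2c37*, -2.34 for *Cyp2c38*, -1.24 for *Cyp2c50*, -1.88 for *Cyp2c54*, -3.43 for *Cyp2c55* and -2.95 for *Cyp2c69*, with edgeR adjusted p from 0.0124 to 0.0989. In Hom vs Ctrl 4 members stayed called with BG3 alone, *Cyp2c37*, *Cyp2c39*, *Cyp2c40* and *Cyp2c69*. The other 3 gave -2.58 (adjusted p = 0.0214) for *Cyp2c38*, -1.78 (adjusted p = 0.0128) for *Cyp2c50* and -2.54 (adjusted p = 0.056) for *Cyp2c54* in edgeR. Over all genes the number called lower with BG3 alone was 638 in place of 1454 in Het vs Ctrl and 590 in place of 647 in Hom vs Ctrl. BG3 itself was above all Het mice for each of the 7 genes called there, as the other Ctrl mice were. The clock score, the mean z-score of 17 clock genes signed by their relation to *Dbp*, was -1.34 in malpa387, 0.196 to 0.558 in the other Ctrl mice and 0.435 to 0.63 in Het mice. It was -0.747 in BG183, -1.77 in BG90 and -1.05 in BG38, so that in Hom mice genotype and clock score cannot be told apart. The 1 Ctrl mouse with a score in that range, malpa387, was the lowest Ctrl mouse for *Cyp2c40*, *Cyp2c54*, *Cyp2c69* and *Cyp2c70* and the highest for *Cyp2c55*. For *Cyp2c54* it was level with malpa459, at 279.475 and 279.533 CPM, although the clock score of malpa459 was 0.235. With the score as a covariate the same 7 members were called lower by edgeR in each comparison with Ctrl, where the genes called lower were 1364 in place of 1454 in Het and 399 in place of 647 in Hom vs Ctrl. The 4 calls between the mutant groups were lost with it, at 1.15 (adjusted p = 0.14) for *Cyp2c37*, 1.56 (adjusted p = 0.0424) for *Cyp2c39*, 1.85 (adjusted p = 0.226) for *Cyp2c69* and -1.77 (adjusted p = 0.309) for *Cyp2c55*. Of all genes, 202 in place of 1969 were called between the mutant groups in that fit, so the loss was not particular to the members.

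Sums over each set of near copies do not depend on how the reads counted for a set were split within it. The sum of *Cyp2c40*, *Cyp2c67*, *Cyp2c68* and *Cyp2c69* was 2606 ± 503 CPM (SD, n = 6) in Ctrl, 706 ± 143 (SD, n = 6) in Het and 433 ± 31.8 (SD, n = 3) in Hom mice. It was called in both comparisons with Ctrl, at -1.89 (standard error 0.17, adjusted p = 1.41e-08) in Het and -2.59 (standard error 0.23, adjusted p = 3.72e-08) in Hom mice in edgeR, and not between the mutant groups, at 0.71 (standard error 0.20, adjusted p = 0.0173). The sum of *Cyp2c37*, *Cyp2c50* and *Cyp2c54* was also called in both, at -1.45 (standard error 0.20, adjusted p = 6.81e-06) and -2.24 (standard error 0.27, adjusted p = 2.86e-06) in edgeR, and gave 0.79 (standard error 0.25, adjusted p = 0.029) between the mutant groups. In the sum of *Cyp2c29*, *Cyp2c38* and *Cyp2c39* the abundant *Cyp2c29* dominated. That sum was not called, with -0.33 (standard error 0.17, adjusted p = 0.195) in Het and -0.97 (standard error 0.22, adjusted p = 0.00258) in Hom vs Ctrl in edgeR. The falls of *Cyp2c38* and *Cyp2c39* are thus not seen in the sum of their set, and these transcripts shared no 150-base window with another gene of the family. At 50 bases, 7.45% of the windows of *Cyp2c38* and 11.4% of those of *Cyp2c39* were shared.

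Levels were compared between genes as CPM per kb of transcript. In Ctrl livers the order was *Cyp2c69* (819 ± 221 CPM per kb, mean ± SD), *Cyp2c29* (537 ± 60.5), *Cyp2c37* (439 ± 37.9), *Cyp2c50* (390.1 ± 51.1), *Cyp2c70* (351 ± 54.9), *Cyp2c40* (291 ± 45.7), *Cyp2c54* (183 ± 35.6), *Cyp2c38* (37.8 ± 13.5), *Cyp2c39* (6.11 ± 0.871) and *Cyp2c55* (2.63 ± 1.42). From *Cyp2c29* to *Cyp2c40* the mean ± SD of neighbours overlapped, and for the other neighbours it did not. In Het livers the first 5 were *Cyp2c29* (460.1 ± 107), *Cyp2c70* (371 ± 101), *Cyp2c37* (182 ± 72.9), *Cyp2c50* (141 ± 40.9) and *Cyp2c69* (108 ± 39.9), followed by *Cyp2c54* (47.2 ± 16.7), *Cyp2c40* (45.4 ± 16.1), *Cyp2c38* (10.9 ± 4.27), *Cyp2c39* (4.04 ± 1.73) and *Cyp2c55* (0.358 ± 0.263). Neighbours overlapped in mean ± SD for the first pair, from *Cyp2c37* to *Cyp2c69* and for *Cyp2c54* with *Cyp2c40*. In Hom livers they were *Cyp2c70* (330.4 ± 34.3), *Cyp2c29* (291 ± 83.3), *Cyp2c50* (98.5 ± 33.7), *Cyp2c37* (86.0 ± 23.9) and *Cyp2c40* (40.4 ± 11.5), followed by *Cyp2c54* (30.4 ± 17.6), *Cyp2c69* (23.7 ± 13.9), *Cyp2c38* (9.46 ± 2.70), *Cyp2c55* (2.10 ± 1.32) and *Cyp2c39* (1.47 ± 0.154). There the first pair overlapped, then *Cyp2c50* with *Cyp2c37*, neighbours from *Cyp2c40* to *Cyp2c38*, and the last pair. When all annotated exons of a gene are merged in place of its transcript, *Cyp2c69* still came first in Ctrl and *Cyp2c70* in Hom mice, but *Cyp2c70* passed *Cyp2c29* in Het mice, and the places of *Cyp2c29* and *Cyp2c50* in Ctrl became 3 and 6.

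The members' summed level was 2559.7 to 3492 CPM per kb in Ctrl mice (mean 3056 ± 297, SD, n = 6). In Het mice it was 914 to 1718 (mean 1370.1 ± 293, SD, n = 6). In Hom mice it was 1037 in BG183, 983 in BG90 and 719 in BG38 (mean 913 ± 170.3, SD, n = 3). All mutant mice were below all Ctrl mice, and the make-up of the sum differed as well. *Cyp2c69* held 26.4% of it on average in Ctrl, 7.89% in Het and 2.81% in Hom mice. The share of *Cyp2c70* was 11.5%, 27.4% and 36.7%, and that of *Cyp2c29* was 17.7%, 33.4% and 31.4% in the same order. The near copies *Cyp2c69* and *Cyp2c40* did not keep 1 ratio. *Cyp2c69* over *Cyp2c40* in CPM was 1.93 to 3.32 in Ctrl and 1.07 to 3.26 in Het mice. It was 0.180 in BG183, 0.942 in BG90 and 0.571 in BG38, below all other mice.

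**Figure D3:**
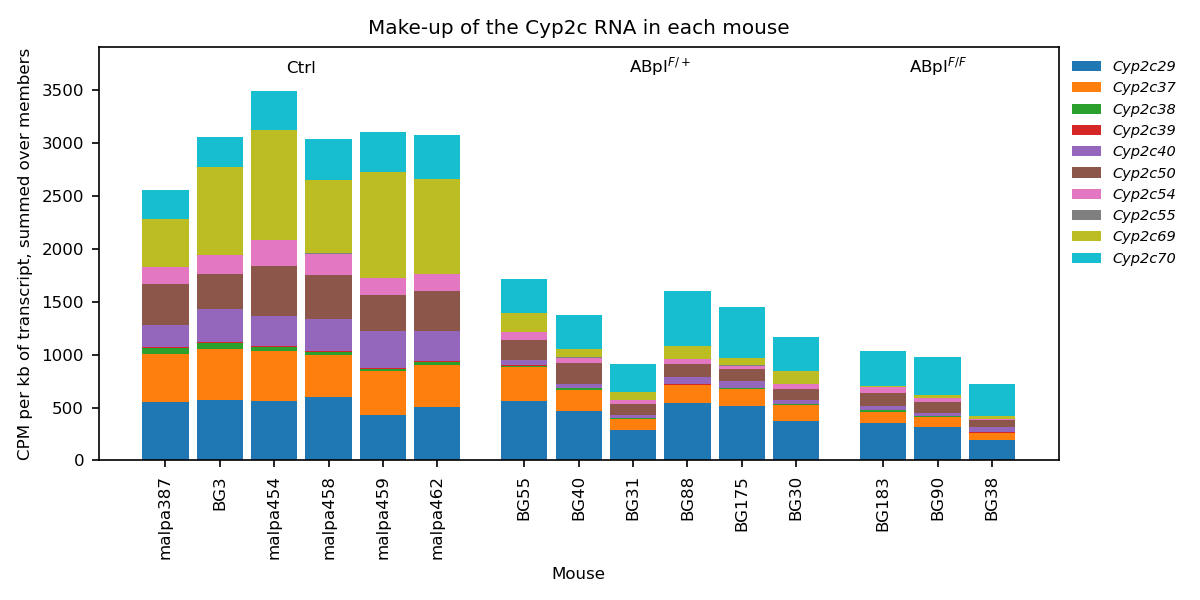
Stacked bars give the CPM per kb of transcript of each Cyp2c member in each of the 15 mice, by group. The bars of the mutant mice are shorter than those of the Ctrl mice, and in them the band of *Cyp2c69* is thin while *Cyp2c29* and *Cyp2c70* make up most of the height.

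Within groups, members were compared by the correlation of their deviations from the group means of log2 CPM over 15 mice. *Cyp2c50* and *Cyp2c54* were the most alike, at r = 0.886. *Cyp2c37* followed *Cyp2c39* at 0.810, *Cyp2c29* at 0.799, *Cyp2c54* at 0.796 and *Cyp2c50* at 0.779. *Cyp2c40* and *Cyp2c69* had an r of 0.282 in spite of their sequence, and *Cyp2c40* was closer to *Cyp2c70*, at 0.655. The most negative values were -0.679 for *Cyp2c55* with *Cyp2c69* and -0.627 for *Cyp2c38* with *Cyp2c70*. These are descriptions over mice that share groups and scaling, with 45 pairs looked at.

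Outside the family, the genes of at least 5 CPM most like each member over the 15 mice were found by Pearson r of log2 CPM, given here with the r of the deviations from group means in brackets. *Cyp2c54* was most like *Ghr*, the growth hormone receptor, at 0.978 (0.849), then *Ugt1a5* at 0.973 (0.836) and the pericentral P450 gene *Cyp2e1* at 0.972 (0.897). *Cyp2c37* was most like *Cyp2e1* at 0.966 (0.788) and *Cyp2c50* most like *Dpyd* at 0.980 (0.867), and both had *Ugt1a5* among their 3 nearest genes. *Cyp2c69* was most like *Cyp3a41a*, a P450 gene of female mouse liver, at 0.983 (0.805). *Cyp2c40* was most like *Ugt2b1* at 0.970 (0.688), *Cyp2c39* most like *Cyp27a1* at 0.957 (0.738), and *Cyp2c38* most like *AU022252* at 0.944 (0.811). *Cyp2c29* was most like *Tprkb* at 0.934 (0.843) and *Cyp2c55* most like *Acat3* at 0.953 (0.844). By the r over all mice *Cyp2c70* had no gene as close, its nearest being *Lin54* at 0.751 (0.782). Its r in brackets was above those of *Cyp2c40* and *Cyp2c39* with their nearest genes. The r over all mice includes the differences between groups, which the r in brackets leaves out.

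Genes that serve the Cyp2c enzymes were counted next, each list beside the median of 0.00 over all genes. Of 5 genes of electron supply, 2 were called lower in Het vs Ctrl and 3 in Hom vs Ctrl, with medians of -0.43 and -1.17, and 1 was called higher in Het than in Hom (median 0.29). That gene was *Por*, cytochrome P450 reductase, with 286 to 896 CPM (median 763), with a mean of 712 ± 216 (SD, n = 6) in Ctrl and 818 to 1626 CPM (median 988), with a mean of 1071 ± 287 (SD, n = 6) in Het mice. The lowest Ctrl value was that of malpa387, whose clock score was in the range of the Hom mice, and the other 5 Ctrl mice had 749 CPM or more of *Por*. In Hom mice *Por* had 185 CPM in BG183, 156 in BG90 and 147 in BG38, with a mean of 162 ± 19.7 (SD, n = 3), below all other mice. Its edgeR log2 fold change was 0.59 (standard error 0.21, adjusted p = 0.0485) in Het vs Ctrl, -2.13 (standard error 0.29, adjusted p = 1.93e-05) in Hom vs Ctrl and 2.72 (standard error 0.30, adjusted p = 4.18e-06) between the mutant groups. *Pgrmc1* fell in both, with log2 fold changes of -1.18 and -1.17. Of 8 genes of heme synthesis, 3 were called lower in each comparison with Ctrl (medians -0.65 and -0.54), and 1 was called in each direction between the mutant groups (median 0.0551). For *Alas1*, the rate-limiting enzyme of heme synthesis, edgeR gave -0.92 (standard error 0.41, adjusted p = 0.128) in Het vs Ctrl, not called, -4.07 (standard error 0.62, adjusted p = 0.000331) in Hom vs Ctrl and 3.15 (standard error 0.59, adjusted p = 0.00179) between the mutant groups. Here too malpa387 was the lowest Ctrl mouse, at 196 CPM against 344 to 1486 CPM in the other 5, and the Hom mice had 42.4 to 53.4 CPM. The part of the clock in the values of *Por* and *Alas1* in Hom mice cannot be told apart from that of the genotype.

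Genes that act on the members' substrates were counted in the same way. Of 14 genes of arachidonic acid oxidation, 7 were called lower in Het vs Ctrl (median -1.46) and 8 in Hom vs Ctrl (median -1.74). Between the mutant groups 2 were lower and 1 higher in Het, with a median of 0.38. *Ephx2*, the soluble epoxide hydrolase, had 449.5 ± 101 CPM (SD, n = 6) in Ctrl, 147 ± 21.5 CPM (SD, n = 6) in Het and 103 ± 34.5 CPM (SD, n = 3) in Hom mice. It fell in both mutant groups in edgeR, at -1.62 (standard error 0.17, adjusted p = 1.43e-07) and -2.12 (standard error 0.22, adjusted p = 5.01e-07), and so did the microsomal hydrolase *Ephx1*, at -1.59 (standard error 0.17, adjusted p = 1.43e-07) and -1.88 (standard error 0.22, adjusted p = 1.7e-06). Of 14 genes of bile acid synthesis, 6 were called lower and 1 higher in Het vs Ctrl (median -0.90) and 9 lower in Hom vs Ctrl (median -1.15). Between the mutant groups 2 were lower and 3 higher in Het (median 0.15). *Cyp7a1*, which starts the pathway, had 294 ± 179 CPM (SD, n = 6) in Ctrl, 47.6 ± 22.5 CPM (SD, n = 6) in Het and 8.62 ± 9.02 CPM (SD, n = 3) in Hom mice, with edgeR values of -2.63 (standard error 0.57, adjusted p = 0.00344) and -5.09 (standard error 0.87, adjusted p = 0.00111). *Cyp8b1*, which turns the pathway to cholic acid, had 163 ± 56.3 CPM (SD, n = 6), 2.60 ± 1.56 CPM (SD, n = 6) and 9.61 ± 8.59 CPM (SD, n = 3) in the same order, with edgeR values of -5.96 (standard error 0.55, adjusted p = 2.54e-06) and -4.08 (standard error 0.67, adjusted p = 0.000737). *Cyp2c70* was thus measured at an overlapping level in livers whose *Cyp7a1* and *Cyp8b1* fell. Of 11 genes of retinoid metabolism, 4 were lower and 1 higher in Het vs Ctrl (median -0.62), 2 lower and 1 higher in Hom vs Ctrl (median -0.48), and 2 lower and 1 higher in Het vs Hom (median -0.0634). *Retsat* fell in both with log2 fold changes of -2.06 and -2.48, and *Cyp26a1*, the main retinoic acid hydroxylase, was not called in either, at 0.29 and -2.10.

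Of 21 regulators of P450 genes, 1 was called lower and 1 higher in Het vs Ctrl (median -0.29), where 10.0% of all genes were called, 3 lower in Hom vs Ctrl (median -0.21), and 3 higher in Het vs Hom (median 0.16). *Nr1i3*, which encodes CAR, had 102 to 185 CPM (median 113), with a mean of 131 ± 36.1 (SD, n = 6) in Ctrl and 62.1 to 118 CPM (median 94.0), with a mean of 88.0 ± 21.9 (SD, n = 6) in Het mice. In Hom mice *Nr1i3* had 46.1 CPM in BG183, 48.7 in BG90 and 31.7 in BG38, with a mean of 42.2 ± 9.15 (SD, n = 3), below all other mice. edgeR gave -0.57 (standard error 0.19, adjusted p = 0.026) for *Nr1i3* in Het vs Ctrl, not called, -1.64 (standard error 0.25, adjusted p = 6.53e-05) in Hom vs Ctrl and 1.06 (standard error 0.24, adjusted p = 0.00327) between the mutant groups, both called. *Nr1i2*, which encodes PXR, was called in neither comparison with Ctrl, at -0.42 (standard error 0.10, adjusted p = 0.00281) and -0.88 (standard error 0.13, adjusted p = 3.31e-05) in edgeR, and neither was *Hnf4a*, at 0.51 (standard error 0.14, adjusted p = 0.00789) and -0.21 (standard error 0.17, adjusted p = 0.524). Of 21 target genes of CAR and PXR, 6 were lower and 1 higher in Het vs Ctrl (median -0.82), 9 lower and 1 higher in Hom vs Ctrl (median -0.77), and 1 lower and 6 higher in Het vs Hom (median 0.20). *Cyp3a11* fell in both, with log2 fold changes of -1.69 and -1.51, while *Cyp2a5* fell in Hom alone, with 2.54 (standard error 0.37, adjusted p = 0.000111) between the mutant groups in edgeR. Of 10 genes of the growth hormone axis, 3 were lower and 1 higher in Het vs Ctrl (median -0.75), 4 lower in Hom vs Ctrl (median -0.51), and 1 higher in Het vs Hom (median 0.13). *Ghr* fell at -1.50 (standard error 0.17, adjusted p = 4.09e-07) and -1.89 (standard error 0.22, adjusted p = 2.12e-06) in edgeR and *Igf1* with log2 fold changes of -1.11 and -1.59, whereas *Stat5b* was not called, at -0.56 and -0.00660. Of the 17 measured clock genes, 4 were higher in Het vs Ctrl (median 0.36), 5 lower in Hom vs Ctrl (median -1.15), and 1 lower and 7 higher in Het vs Hom (median 1.48).

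Markers of liver zones and cell types were read beside the members, and their part in the result was not tested. Of 14 genes of pericentral hepatocytes, 11 were called lower in Het vs Ctrl (median -1.61) and 10 in Hom vs Ctrl (median -2.18), and 2 were higher in Het than in Hom (median 0.17). Their summed level, led by *Cyp2e1*, was 11482 to 16619 CPM in Ctrl and 3612 to 7125 CPM in Het mice, and 3399 in BG183, 3332 in BG90 and 1432 in BG38. *Cyp2e1* itself fell, at -1.35 (standard error 0.24, adjusted p = 0.000187) in Het and -2.31 (standard error 0.33, adjusted p = 2.72e-05) in Hom vs Ctrl in edgeR. Of 12 periportal genes, 2 were lower and 3 higher in Het vs Ctrl (median 0.0386), 4 lower and 1 higher in Hom vs Ctrl (median -0.56), and 1 lower and 6 higher in Het vs Hom (median 0.84). The periportal sum, led by *Cps1* in Ctrl and Hom mice and by *Pck1* in Het mice, was 12763 to 17052 CPM in Ctrl and 13096 to 21502 CPM in Het mice, and 7720.4 in BG183, 8446 in BG90 and 4740.2 in BG38. In Het vs Ctrl neither gene was called, with log2 fold changes of -0.61 for *Cps1* and 0.40 for *Pck1*. Of the 12 genes of hepatocyte identity, 3 were higher in Het vs Ctrl (median 0.60), 1 lower and 3 higher in Hom vs Ctrl (median 0.35), and 1 higher in Het vs Hom (median 0.12). Of 14 acute phase and inflammation genes, 4 were higher in each comparison with Ctrl (medians 0.46 and 1.90), *Hp* among them at 2.08 and 1.99, and 1 was lower in Het vs Hom (median -1.08). The pericentral sum and most members were thus lower in the same livers, while *Cyp2c70* was not called and the sum of the hepatocyte identity genes was higher.

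Markers of cell types other than hepatocytes were read in the same way. With the clock score as a covariate, 11 in place of 65 distinct genes of the lists were called in Het vs Hom, 41 in place of 78 in Hom vs Ctrl and 78 in place of 82 in Het vs Ctrl. The counts here and above are those without it. Of 8 cholangiocyte markers, led by *Spp1*, 6 were higher in Hom vs Ctrl (median 2.89), 1 was called in each direction in Het vs Ctrl (median 0.15), and 6 were lower in Het vs Hom (median -2.15). Their sum was 36.7 to 69.1 CPM in Ctrl and 30.6 to 146 CPM in Het mice, and 208 in BG183, 782 in BG90 and 1158 in BG38. Of 9 stellate cell and fibroblast markers, led by *Dcn* in Ctrl and Het mice and by *Reln* in Hom mice, 7 were lower in Het vs Ctrl (median -1.84), 1, *Reln*, higher in Hom vs Ctrl (median 0.34) and 8 lower in Het vs Hom (median -1.99). Their sum was 217 to 288 CPM in Ctrl and 59.5 to 127 CPM in Het mice, and 307 in BG183, 241 in BG90 and 389.9 in BG38. Of 8 macrophage markers, led by *Clec4f*, 5 were lower in Het vs Ctrl (median -1.16) and 5 in Het vs Hom (median -1.23). In Hom vs Ctrl edgeR called 0 of them, with 1 lower and 0 higher at an unadjusted p under 0.05 and 0 by DESeq2 (median 0.14). Their sum was 257 to 358 CPM in Ctrl and 110.0 to 183 CPM in Het mice, and 208 in BG183, 392 in BG90 and 447 in BG38. Of 7 endothelial markers, led by *Clec4g* in Ctrl and by *Stab2* in Het and Hom mice, 2, *Clec4g* among them, were lower in Het vs Ctrl (median -0.90), 1 higher in Hom vs Ctrl (median 0.0656) and 2 lower in Het vs Hom (median -0.95). The endothelial sum was 163 to 247 CPM in Ctrl and 78.7 to 182 CPM in Het mice, and 271 in BG183, 187 in BG90 and 213 in BG38. Of 8 lymphocyte markers, led by *Ptprc*, 3 were lower in Het vs Ctrl (median -1.52), 1 higher in Hom vs Ctrl (median 0.85) and 5 lower in Het vs Hom (median -2.38). Their sum was 12.9 to 18.7 CPM in Ctrl and at most 7.67 CPM in Het mice, and 15.3 in BG183, 23.2 in BG90 and 47.3 in BG38. As for *Cyp2c55*, the Het mice were below all others in the stellate, macrophage and lymphocyte sums.

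Promoter sequences from RefSeq on build GRCm38.p6, with 250 bases before and 50 from the start site, were found for 9 of the 10 members, with 2 entries for *Cyp2c39*. *Cyp2c54* had no entry. They were searched on both strands for 6 motifs, none of whose matches overlapped. The HNF4 type letters CAAAGTCCA, which 0.475% of all 32851 mouse promoters of this length hold, were found in *Cyp2c40*, *Cyp2c69* and *Cyp2c70*. The C/EBP type letters TTGCNNAA (10.8% of all promoters) were in *Cyp2c37*, *Cyp2c40* and *Cyp2c69*, and the nuclear receptor half-site AGGTCA (16.3%) in *Cyp2c29*, *Cyp2c70* and 1 of the 2 entries of *Cyp2c39*. That *Cyp2c39* entry, at chr19:39347096-39347395, lies outside the gene position given above, and the entry at the start of the gene did not hold it. The *Cyp2c29* entry, at chr19:39286835-39287134, lies inside the gene position and not at its start. The D-box letters TTANGTAA (2.32%) were in *Cyp2c38*, the STAT5 type letters TTCNNNGAA (8.3%) in 0 of the members' windows, and TATAAA (13.6%) in those of 7 members. The promoters of *Cyp2c40* and *Cyp2c69* were identical at 267 of 270 aligned bases, and the ratio of their RNA was lower in Hom than in the other mice. These promoters are shown with that of *Cyp2c70* because the 3 share the rarest motif of the search while *Cyp2c40* and *Cyp2c69* fell and *Cyp2c70* was not called. All 3 are on the minus strand, at chr19:39812765-39813064 for *Cyp2c40*, chr19:39886720-39887019 for *Cyp2c69* and chr19:40187237-40187536 for *Cyp2c70*, and capitals mark the motif matches.
*Cyp2c40*: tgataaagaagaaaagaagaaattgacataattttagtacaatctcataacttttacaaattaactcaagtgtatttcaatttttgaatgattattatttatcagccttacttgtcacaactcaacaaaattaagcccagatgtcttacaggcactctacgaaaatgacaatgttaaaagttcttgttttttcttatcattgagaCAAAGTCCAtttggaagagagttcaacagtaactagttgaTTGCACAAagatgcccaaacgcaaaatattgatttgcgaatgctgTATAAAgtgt
*Cyp2c69*: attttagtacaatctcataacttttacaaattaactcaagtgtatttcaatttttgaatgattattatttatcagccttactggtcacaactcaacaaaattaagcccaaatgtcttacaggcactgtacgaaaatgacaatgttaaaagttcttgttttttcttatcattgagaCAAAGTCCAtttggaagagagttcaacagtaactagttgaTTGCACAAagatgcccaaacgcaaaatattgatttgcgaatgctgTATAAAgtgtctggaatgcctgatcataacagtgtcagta
*Cyp2c70*: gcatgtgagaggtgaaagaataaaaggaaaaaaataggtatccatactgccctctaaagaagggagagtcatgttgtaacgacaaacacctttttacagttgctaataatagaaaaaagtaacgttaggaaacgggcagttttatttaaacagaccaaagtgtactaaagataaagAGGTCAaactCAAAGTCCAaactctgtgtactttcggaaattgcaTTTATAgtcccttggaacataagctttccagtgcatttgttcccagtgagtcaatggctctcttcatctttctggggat
With the start site as +1, the HNF4 type letters begin at -45 in *Cyp2c40*, -75 in *Cyp2c69* and -64 in *Cyp2c70*, the C/EBP type letters at -5 in *Cyp2c40* and -35 in *Cyp2c69*, and the half-site at -74 in *Cyp2c70*. TATAAA begins after the annotated start in *Cyp2c40*, at +41, and in *Cyp2c69*, at +11. The matches in these genes have the same spacing, so their positions differ by the annotated start alone. A match is a description of the letters and does not show that a factor binds there.

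*Cyp2c37* and *Cyp2c50*, which fell together in both comparisons with Ctrl and lie on the plus strand at chr19:39992174-39992473 and chr19:40089429-40089728, had promoters identical at 264 of 295 aligned bases (89.5%). Between the mutant groups *Cyp2c37* was called and *Cyp2c50* was not. In these promoters *Cyp2c37* held 1 match, to the C/EBP type letters on the opposite strand at -94.
*Cyp2c37*: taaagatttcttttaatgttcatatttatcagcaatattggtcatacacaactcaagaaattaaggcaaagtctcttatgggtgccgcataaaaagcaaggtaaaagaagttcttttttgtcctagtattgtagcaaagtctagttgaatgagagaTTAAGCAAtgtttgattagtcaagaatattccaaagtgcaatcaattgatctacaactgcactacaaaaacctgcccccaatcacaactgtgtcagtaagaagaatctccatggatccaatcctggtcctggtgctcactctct
*Cyp2c50*: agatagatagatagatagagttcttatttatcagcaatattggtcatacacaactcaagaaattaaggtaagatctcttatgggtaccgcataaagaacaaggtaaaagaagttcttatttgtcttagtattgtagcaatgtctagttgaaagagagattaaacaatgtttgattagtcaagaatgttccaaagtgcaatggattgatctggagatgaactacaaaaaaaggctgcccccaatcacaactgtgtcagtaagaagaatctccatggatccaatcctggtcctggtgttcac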

How the data were processed

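Liver RNA of 15 mice was extracted with Trizol by the authors, made into stranded mRNA libraries, sequenced as paired ends, aligned with HISAT2 (version 2.21 in the labels) to mm10 and counted with featureCounts 2.0.8. The annotation and strand setting of the counting are not stated. The deposited values are raw counts in 1 column per mouse, although 23 samples name these mice, 8 of them by 2 samples. Both deposited tables hold the same counts, with 0 cells that differ, and the 5 columns of the second table headed by digits alone, whose unit was recorded as other in the deposited table, are counts as well. The authors' own fold changes and p-values were not used.

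The software was R 4.3.3, edgeR 4.0.16 (TMM, all genes kept, the earlier form of its quasi-likelihood method, robust estimation), limma 3.58.1 and DESeq2 1.42.0. Standard errors are the absolute log2 fold change divided by the square root of F. p-values were adjusted by Benjamini-Hochberg over 27179 genes. log2 CPM used a prior count of 2. Positions, transcripts and coding sequences came from GENCODE on GRCm38, with the transcript of longest coding sequence used for lengths and identity. The procedure was tested on simulated data.

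The members and the 21 gene lists, the members among them, were chosen with earlier results of these data known. Named genes are the members, *Icmt*, the other Cyp2c genes, the 3 most abundant genes of each list, 12 further genes of P450 supply, regulation, lipid and bile acid metabolism, and the 3 genes most like each member. The intestinal markers *Cdx1*, *Cdx2*, *Sis* and *Alpi* are named outside this rule, chosen after their counts at or near 0 were seen, and *Cyp2c53-ps* for its symbol. Of the other Cyp2c genes, 5 of 6 were in the table, of which edgeR called 2 lower in Het vs Ctrl, 3 lower in Hom vs Ctrl and 1 lower in Het vs Hom.

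Alternatives were RLE size factors, DESeq2, the 14596 genes passing filterByExpr, the edgeR 4 form, no robust estimation, an adjusted p under 0.05, a log2 fold change of at least 2 or no fold change threshold, the groups compared alone, the other deposited table, the clock score as a covariate, BG3 as the only Ctrl mouse, summed near copies and leaving out each mouse. Reads were not analysed.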

Additional observations from a re-analysis of the deposited data

Results flagged for a closer look

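In groups of 6 mice, the gap of the highest or lowest mouse to its nearest neighbour was divided by the range of the group, for each member in Ctrl and in Het mice. In 1 of 20 groups it passed Dixon's critical value for 6 samples. That was *Cyp2c39* in Het mice, where BG55 had 13.4 CPM and the next mouse 7.93 CPM, a gap of 0.675 of the range. Chance flags about 1 in 20 groups, so 1 such group among 20 is the number that chance gives. Without BG55 the log2 fold change of *Cyp2c39* in Het vs Ctrl was -0.86 in place of -0.60, and it was called in neither fit. BG55 was also the highest Het mouse for *Cyp2c29*, *Cyp2c37*, *Cyp2c38*, *Cyp2c54* and *Cyp2c69*, and the lowest for *Cyp2c55*. The cause was not tested.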

How the results depend on the processing

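The log2 fold changes of the members were recomputed 834 times over 28 alternative settings, 15 of which left out a mouse. In 781 the direction and the side of the thresholds stayed the same, 42 no longer passed, 2 newly passed and 9 reversed, with 0 reversals among called results. The settings that changed a threshold alone kept the fold changes of the reported fit, and the other deposited table holds the same counts. A reversal was not possible in these settings, which are among the 834. The counts of 0 members called higher in Het vs Ctrl and in Hom vs Ctrl stayed 0 in each alternative. No paired analysis was possible because the numbers in sample titles mark libraries of 1 mouse and the columns are per mouse.

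With BG3 as the only Ctrl mouse, the members called lower were 1 in place of 7 in Het vs Ctrl, 4 in place of 7 in Hom vs Ctrl and 0 in place of 1 in Het vs Hom. The members called higher in the last were 1 in place of 3. All genes called lower were 638 in place of 1454 in Het vs Ctrl and 590 in place of 647 in Hom vs Ctrl. Distinct genes of the other lists called in either direction were 44 in place of 82 in Het vs Ctrl and 36 in place of 78 in Hom vs Ctrl. This setting has fewer mice. With the clock score as a covariate, 0 members were called lower and 0 higher in Het vs Hom, and the genes of other lists called were 41 in Hom vs Ctrl and 11 in place of 65 in Het vs Hom, where all genes called were 202 in place of 1969. With the groups compared alone, 1 member in place of 3 was called higher in Het vs Hom. All genes called in that fit were 439 in place of 478 higher and 1144 in place of 1491 lower. At a log2 fold change of at least 2, 3 members were called lower in Het vs Ctrl, 5 in Hom vs Ctrl and 1 in Het vs Hom, with 1 higher in the last, and the genes of other lists called were 34, 35 and 29. At that threshold 566, 193 and 761 of all genes were called lower in the same order, with 94 higher in the last.

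Leaving out each mouse gave 7 to 7 members lower in Het vs Ctrl, 6 to 8 in Hom vs Ctrl and 0 to 1 in Het vs Hom, with 2 to 3 higher there. All genes called lower ranged from 1323 (without BG31) to 1492 (without BG38) in Het vs Ctrl. They ranged from 438 (without BG38) to 796 (without BG183) in Hom vs Ctrl, and from 788 to 1571 without the same mice in Het vs Hom. All genes called higher in Het vs Hom ranged from 367 (without BG38) to 543 (without BG175). The genes of other lists called ranged from 75 to 85, from 60 to 81 and from 49 to 69.

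Reversed values belonged to genes that were not called. Leaving out each mouse moved *Cyp2c70* in Het vs Ctrl from -0.0355 (without BG88) to 0.16 and reversed it also without BG175, at -0.0311. It moved *Cyp2c55* in Hom vs Ctrl from -0.86 to 0.0847 (without BG38). In Het vs Hom it moved *Cyp2c38* from -0.0137 (without BG38) to 0.36 and *Cyp2c40* from -0.0143 (without BG90) to 0.40. With BG3 as the only Ctrl mouse *Cyp2c70* was 0.17 in Hom vs Ctrl. With the clock score it was 0.10 in Hom vs Ctrl and -0.0846 in Het vs Hom, where *Cyp2c40* was -0.33. Apart from fewer mice, the cause was not tested. Depth limits *Cyp2c55*, with 8 to 43 counts in Het mice. Paralog reads, strain label, age, clock phase and cell make-up limit what the group differences can be assigned to.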
